A study of Mus musculus with 147 samples.

Results

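The 7 genes described here act at the start of meiotic recombination in the male germline. They are *Spo11*, *Mei1* and *Mei4*, which act in the formation of DNA double-strand breaks, *Prdm9*, which marks the sites of the breaks, *Hormad1* and *Hormad2*, which sit on the chromosome axis, and *Trip13*, which takes both HORMAD proteins off it. They were taken by name from the 31053 genes of the table of counts, and all 7 were found. The authors sequenced single cells of mouse gonads with a modified STRT-seq, in which each transcript carries a unique molecular identifier (UMI) and is read at its 3′ end. All animals used here were wild-type offspring of C57BL/6 females and males that carry 2 fluorescent reporters of the germline, *Blimp1*-mVenus and *Stella*-ECFP (BVSC). Cells of 23 time-points were used, daily from E11.5 to E18.5 (E, embryonic day) and from PND0 to PND8 (PND, postnatal day), then at PND10, PND12, PND14, PND30, PND35 and in adults of 8 to 10 weeks. Fetal germ cells were sorted by the reporters, from E14.5 by *Stella*-ECFP alone, and cells negative for the reporters were collected beside them. Gonads of E13.5 to E16.5 were cut into 3 pieces along their length before the sort, and the pieces were summed here. Postnatal cells were picked by their shape, and part of the PND14 and PND30 cells were sorted by DNA content (1N, 2N and 4N).

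Meiosis starts with breaks that the cell makes in its own DNA. SPO11 cuts the DNA in a complex whose accessory proteins include MEI4, and MEI1 is needed for the cuts. In mice, PRDM9 binds DNA through its zinc fingers and methylates histone H3 where most of the breaks will fall, while HORMAD1 and HORMAD2 cover the axes of chromosomes that have not yet paired. Female germ cells enter this programme in the fetal ovary, whereas male germ cells stop dividing in the fetal testis and enter it only after birth.

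UMI counts of the germ cells of 1 time-point and 1 biological replicate were summed to a pool, and levels are given in counts per 1000000 UMIs of the pool (CPM). Each of the 23 time-points had 2 pools, 46 in all, with 27 to 572 germ cells and 12409411 to 197524235 UMIs each (median 44462266). A cell was called a germ cell by a ratio of germline to somatic marker genes, which none of the 7 genes enters, and 7929 of 9287 cells passed. In the sum of a pool, more cells of a stage and more transcripts per cell cannot be told apart. Reads came from the 3′ ends, so the splice forms of *Spo11* were not separated, and a level is compared only with levels of the same gene. All 8 germline markers were at 1 CPM or more in every pool from E14.5 on. Before that, *Tdrd1* and *Tdrd9* fell below it, with a lowest level of 0.225 CPM for both.

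A few libraries stood apart and are named before the results that they touch. The 25 somatic markers summed to between 37.6 and 1033 CPM in the pools. After PND14 the sum was at a median of 41.7 CPM, and replicate 1 of the adult stood out at 509 CPM, of which 315 CPM came from 4 Leydig cell genes. *Cyp11a1* lay at 214 CPM in that pool. The highest sum was that of replicate 1 of PND12, at 1033 CPM, with 620 CPM from interstitial and peritubular genes and 278 CPM from Sertoli genes. At E11.5 to E13.5 most of the sum was 1 gene of the Sertoli list, *Rhox5*, with a median of 628.9 CPM. The medians of *Sox9*, *Amh*, *Wt1* and *Cldn11* there were 1.68, 1.07, 6.16 and 2.685 CPM. Whether the sums come from RNA of somatic cells, and its part in the levels below, was not tested. In replicate 1 of E15.5, 3 germ cells came from the gate without reporter and differed from the other 93, as given below for *Mei1* and *Prdm9*. In replicate 1 of E17.5, 47 of 72 reporter-positive cells passed the germ cell rule, against 1296 of 1363 in all fetal pools. The 96 well barcodes were used in all libraries by design, so a barcode alone does not name a cell.

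**Figure D1:**
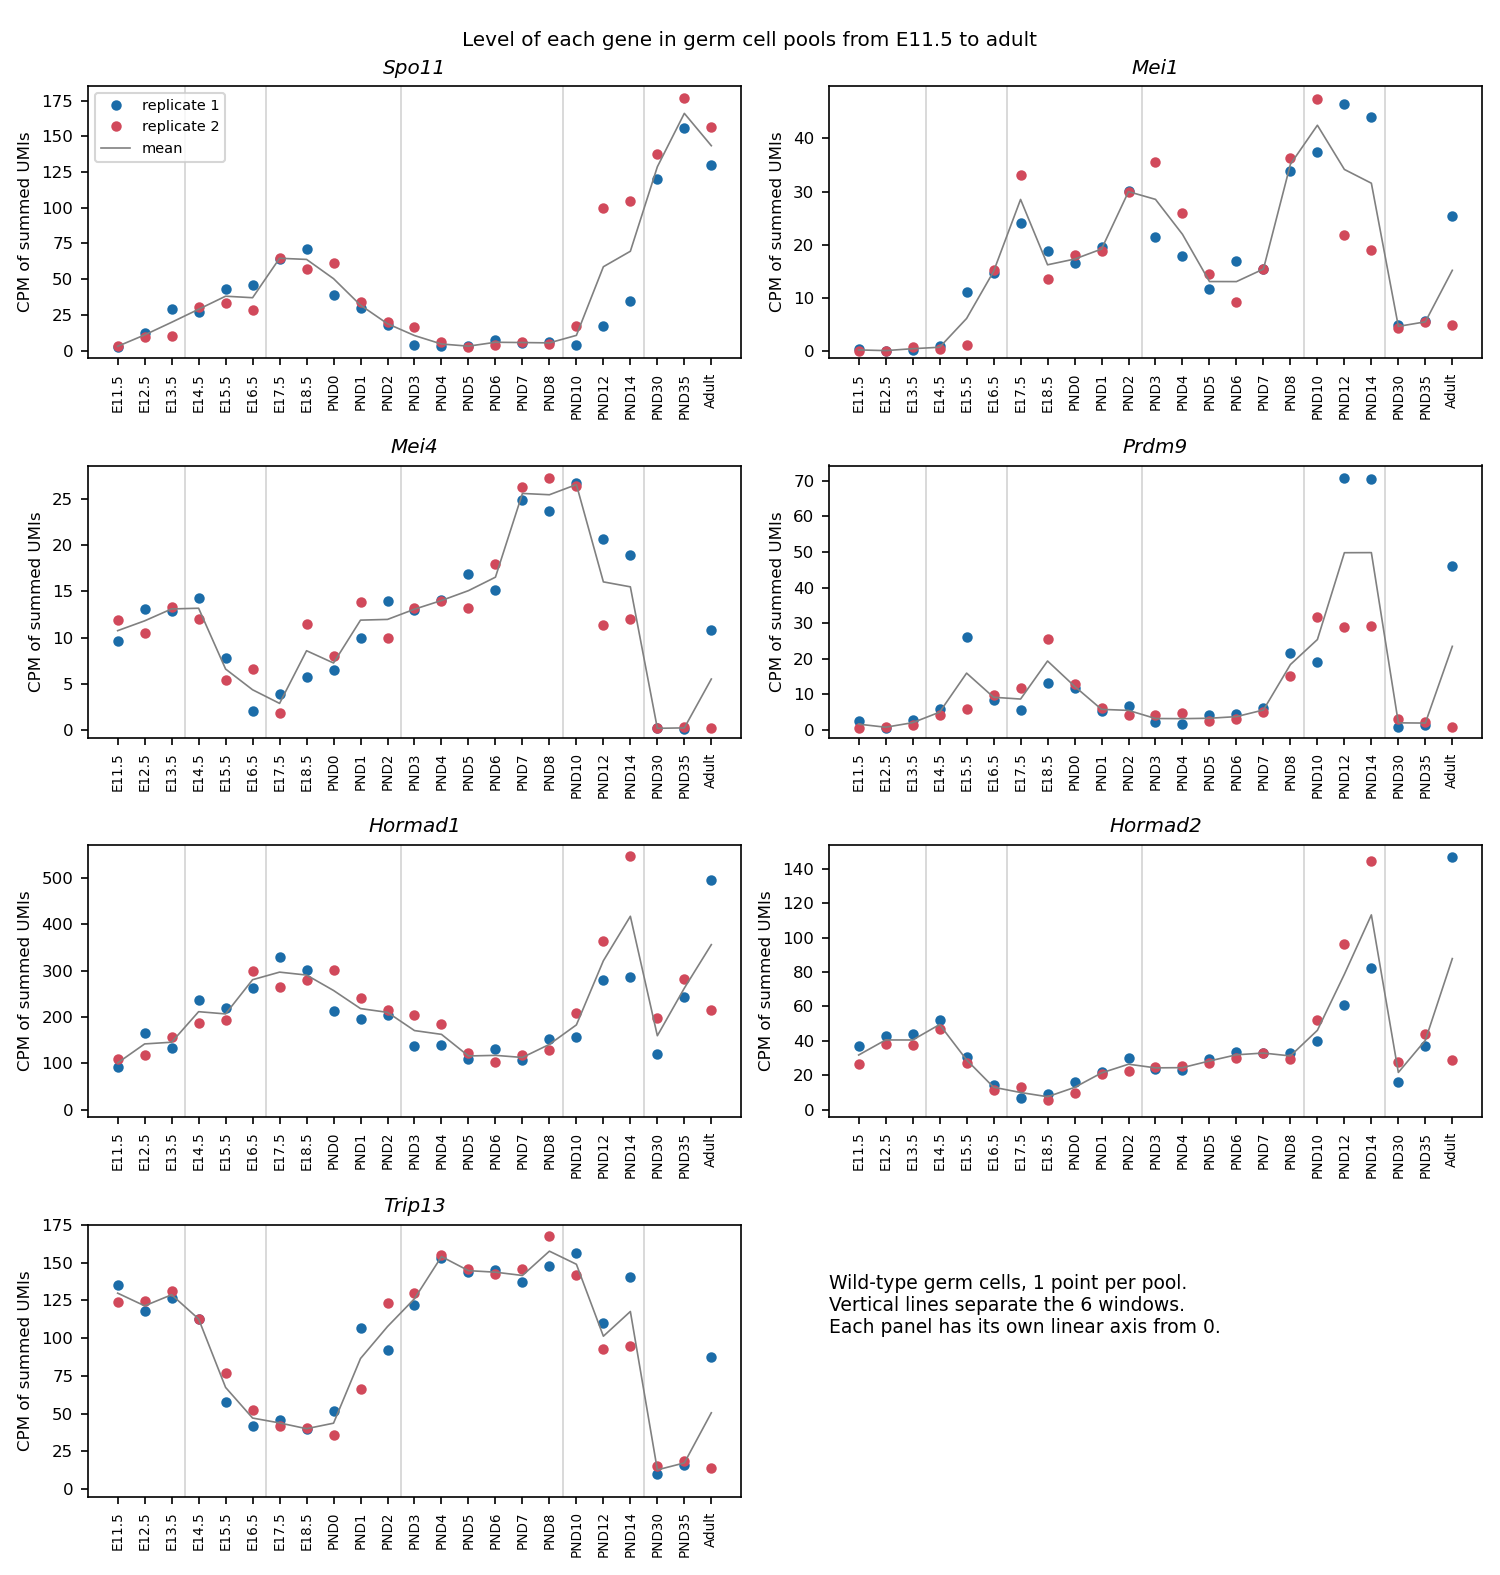
Levels of the 7 genes in the 46 germ cell pools, in CPM of summed UMIs on linear axes that start at 0, with 1 point per replicate (blue, replicate 1; red, replicate 2), a line through the mean of both and vertical lines between 6 windows of time. *Spo11* and *Hormad1* had a fetal maximum at E17.5 to E18.5, *Trip13* was low on these same days, *Mei4* had its lowest fetal mean at E17.5, and *Prdm9* was highest at PND12 and PND14.

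For tests, the time-points were joined to 6 windows: E11.5 to E13.5, E14.5 to E16.5, E17.5 to PND2, PND3 to PND8, PND10 to PND14 and PND30 to adult. Each window was compared with the one before it with the quasi-likelihood test of edgeR, run on 26812 genes, with Benjamini-Hochberg adjustment and a threshold of 0.05. Neighbouring comparisons share the pools of a window. *Spo11*, *Prdm9* and *Hormad1* rose at E14.5 to E16.5 and again at PND10 to PND14. The first rise of *Hormad1* was near the median change of all genes, as given below. From E11.5 to E13.5 to E14.5 to E16.5, *Spo11*, *Mei1*, *Prdm9* and *Hormad1* rose, and *Hormad2* and *Trip13* fell, 6 of 7 in all, where 40.4% of all genes tested were called (24.2% higher, 16.2% lower). From there to E17.5 to PND2, *Mei1* rose and *Hormad2* and *Trip13* fell further, with 36.5% of all genes called. At PND3 to PND8, *Mei4*, *Hormad2* and *Trip13* rose and *Spo11* and *Hormad1* fell, in a comparison that called 54.1% of all genes. At PND10 to PND14, *Spo11*, *Prdm9*, *Hormad1* and *Hormad2* rose and 0 of the 7 fell by edgeR (0 at an unadjusted p under 0.05) or by DESeq2, against 20.9% of all genes called. At PND30 to adult, *Spo11* rose and *Mei1*, *Mei4*, *Prdm9* and *Trip13* fell, with 66.9% of all genes called (36.8% higher, 30.1% lower).

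With so many of all genes called, a count of the 7 alone says little, and the changes are given gene by gene with their sizes. The median log2 fold change of the 7 genes was 0.54, -0.27, 0.26, 1.12 and -1.98 in the 5 comparisons in order, and that of all genes tested was 0.59, 0.43, -0.44, 0.09 and 0.28. The scaling moves these values. Levels in CPM are not scaled in this way, so a level and a fold change can differ in direction. In the second comparison the median CPM of *Spo11* and *Hormad1* rose while their fold changes were negative and not past the threshold. With DESeq2's size factors in place of edgeR's TMM, the median of all genes was 0.61, 0.55, -0.75, 0.03 and 0.68. The split of calls over all genes moved with it, from 20.5% higher and 16% lower to 31.1% and 13% in the second comparison, from 22.9% and 31.2% to 17% and 39.8% in the third, and from 14.1% and 6.73% to 16.4% and 12.3% in the fourth. In the first and last comparison DESeq2 called 51.2% (34.6% higher, 16.6% lower) and 64.4% (39.2% higher, 25.2% lower) of the genes, and in the 3 between them 44.1%, 56.8% and 28.7% in order.

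**Figure D2:**
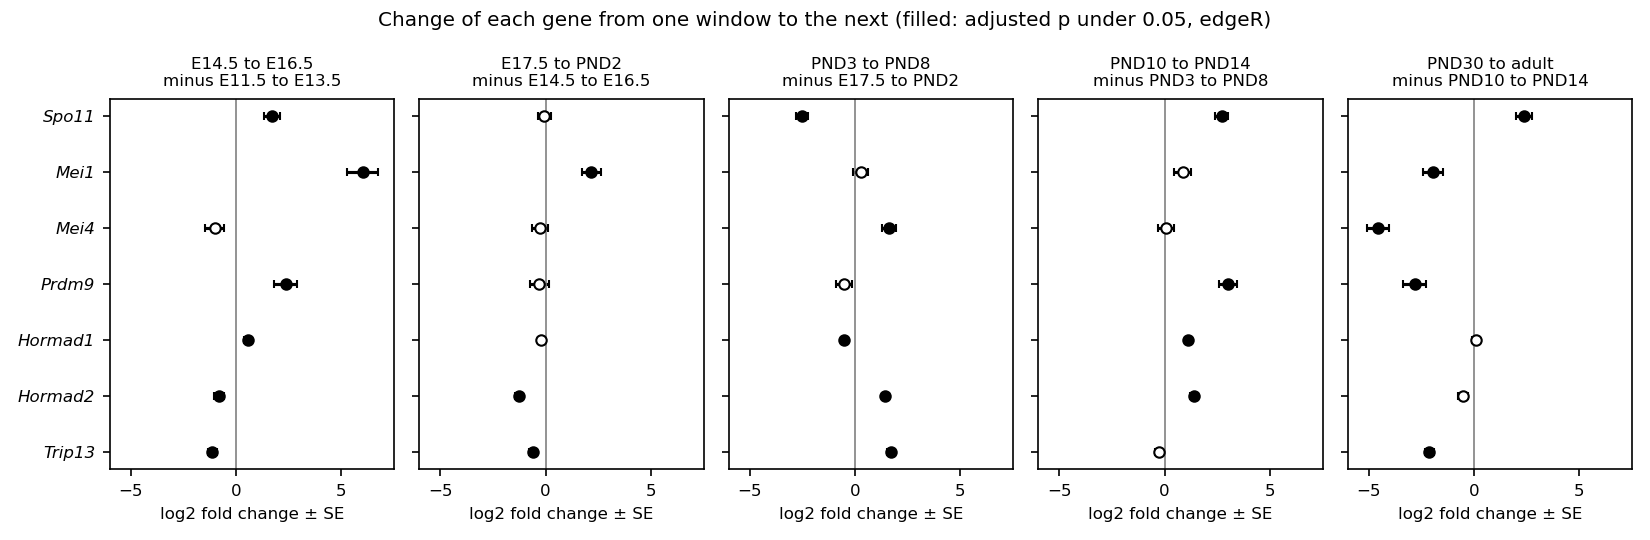
Log2 fold change ± standard error of each gene from 1 window to the next, in 5 panels, from edgeR's quasi-likelihood test on summed UMI counts; filled points have an adjusted p under 0.05. *Mei1* moved most between the first windows (6.00) and *Mei4* most between the last (-4.57), while *Hormad1* stayed within 1.13 of 0 in every panel.

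*Spo11* encodes the catalytic subunit that cuts the DNA and lies on the plus strand at chr2:172977700-172993576 (mm10, GENCODE M21; protein-coding, as are the other 6 genes). In the 6 pools of E11.5 to E13.5 its level ran from 2.63 to 29.3 CPM with a median of 9.95 CPM. In the 6 pools of E14.5 to E16.5 it ran from 27.3 to 45.7 CPM (median 31.8 CPM), and in the 10 pools of E17.5 to PND2 from 17.6 to 70.8 CPM (median 47.9 CPM). The first 2 windows overlapped only through replicate 1 of E13.5 at 29.3 CPM, whose sister pool was at 10.3 CPM. Both replicates of E17.5 (64.1 and 65.1 CPM) and of E18.5 (70.8 and 56.8 CPM) were high, after which the level went down day by day to 17.6 and 20.04 CPM at PND2. The 12 pools of PND3 to PND8 lay between 2.704 and 16.9 CPM (median 4.88 CPM), all below the lowest pool of the window before. At PND10 to PND14 the range was 4.20 to 104.4 CPM (median 25.98 CPM), and the replicates differed: 17.3 and 100.1 CPM at PND12, 34.7 and 104.4 CPM at PND14. At PND30 to adult all 6 pools were above every earlier one, from 120 to 176 CPM (median 146.5 CPM), with PND35 the highest at 156 and 176 CPM. The log2 fold changes between windows were 1.69 ± 0.38 (standard error, adjusted p = 0.000617), -0.06 ± 0.33 (adjusted p = 1), -2.54 ± 0.28 (adjusted p = 1.91e-08), 2.72 ± 0.31 (adjusted p = 3.38e-07) and 2.39 ± 0.38 (adjusted p = 5.01e-06). Replicate 2 of PND12 set much of the size of the last 2, and without it they were 2.10 and 3.22.

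*Mei1*, on the plus strand at chr15:82069996-82126814, is needed for break formation. Its transcripts were nearly absent in the 6 pools of E11.5 to E13.5, which held 10, 0, 0, 0, 1 and 15 UMIs, at most 0.683 CPM. A pool with no UMI allows a level of up to 0.117 to 0.146 CPM (3 counts per library, counting error only). The 6 pools of E14.5 to E16.5 ran from 0.378 to 15.3 CPM with a median of 6.06 CPM. Within this window the level was low in both pools of E14.5 (0.885 and 0.378 CPM), differed between the pools of E15.5 (11.1 and 1.04 CPM) and was high in both of E16.5 (14.6 and 15.3 CPM). In replicate 1 of E15.5, 151 of the *Mei1* UMIs came from the 3 cells without reporter (163 CPM), and the 93 reporter-positive cells were at 6.58 CPM. It stayed between 13.6 and 33.03 CPM (median 19.2 CPM) in the 10 pools of E17.5 to PND2 and between 9.10 and 36.3 CPM (median 17.4 CPM) in the 12 of PND3 to PND8, so both windows overlapped nearly in full. PND10 had the highest mean of any time-point, at 37.5 and 47.5 CPM, and the 6 pools of PND10 to PND14 ran from 18.99 to 47.5 CPM (median 40.8 CPM). At PND30 and PND35 the 4 pools were at 4.84, 4.30, 5.54 and 5.31 CPM, and the adult pools differed, at 25.4 and 4.86 CPM.

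The log2 fold changes of *Mei1* were 6.00 ± 0.75 (adjusted p = 3.10e-07), 2.17 ± 0.46 (adjusted p = 0.000581), 0.26 ± 0.34 (adjusted p = 0.603), 0.85 ± 0.39 (adjusted p = 0.124) and -1.98 ± 0.48 (adjusted p = 0.000688). The first value has near 0 UMIs on its lower side and moves with single pools, to 8.03 without replicate 1 of E11.5, 7.10 without replicate 2 of E13.5 and 5.21 without replicate 1 of E15.5. Without that last pool the second value was 2.92. With cells of the reporter gates alone they were 5.80 ± 0.73 (adjusted p = 3.35e-07) and 2.35 ± 0.45 (adjusted p = 0.000218). At PND3 to PND8 the change of *Mei1* was thus not past the threshold and that of *Spo11* was, and the difference between both genes was not tested.

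*Mei4* encodes a partner in the break machinery and lies on the plus strand at chr9:81863670-82206007. The 6 pools of E11.5 to E13.5 ran from 9.64 to 13.3 CPM (median 12.4 CPM), those of E14.5 to E16.5 from 2.08 to 14.3 CPM (median 7.23 CPM) and those of E17.5 to PND2 from 1.84 to 13.9 CPM (median 8.995 CPM). The level was lowest in the fetus at E17.5, with 3.93 and 1.84 CPM, on the same day as *Spo11* and *Mei1* were near their fetal maximum. It then lay at 12.95 to 27.2 CPM in the 12 pools of PND3 to PND8 (median 16.02 CPM), and PND7, PND8 and PND10 formed a plateau between 23.6 and 27.2 CPM in all 6 pools. The pools of PND10 to PND14 ran from 11.4 to 26.7 CPM (median 19.8 CPM). After PND14, 5 of 6 pools held 0.113 to 0.366 CPM, and replicate 1 of the adult held 10.9 CPM, just under the lowest pool of the window before. The log2 fold changes were -1.02 ± 0.45 (adjusted p = 0.0753), -0.27 ± 0.40 (adjusted p = 0.711), 1.62 ± 0.35 (adjusted p = 0.000260), 0.07 ± 0.39 (adjusted p = 1) and -4.57 ± 0.52 (adjusted p = 2.58e-08). The first was past the threshold without replicate 2 of E16.5 (-1.41, adjusted p = 0.028), and the last was -5.97 without replicate 1 of the adult.

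*Prdm9*, on the minus strand at chr17:15543079-15564354, encodes the histone methyltransferase that places the breaks. It was low before E14.5, from 0.676 to 2.84 CPM in 6 pools (median 1.13 CPM), and lay between 4.28 and 26.1 CPM (median 7.21 CPM) at E14.5 to E16.5, with no overlap of the pools. The log2 fold change was 2.36 ± 0.55 (adjusted p = 0.000875). The highest fetal pool, replicate 1 of E15.5, rested on the 3 cells without reporter, which held 517 of its 842 *Prdm9* UMIs. These cells were at 557 CPM, and the 93 reporter-positive cells of the pool at 10.4 CPM, against 5.87 CPM in replicate 2. With cells of the reporter gates alone the fold change was 2.04 ± 0.53 (adjusted p = 0.00247). The pools of E17.5 to PND2 ran from 4.22 to 25.5 CPM (median 9.27 CPM), highest at E18.5 with 13.3 and 25.5 CPM, and those of PND3 to PND8 from 1.64 to 21.6 CPM (median 4.36 CPM). Neither step passed the threshold (-0.29 ± 0.46, adjusted p = 0.724, and -0.52 ± 0.38, adjusted p = 0.276).

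In the postnatal testis *Prdm9* stayed at or under 6.14 CPM in the 10 pools of PND3 to PND7 and was at 21.6 and 15.2 CPM at PND8. The 6 pools of PND10 to PND14 ran from 19.2 to 70.8 CPM (median 30.4 CPM), a rise of 3.01 ± 0.43 (log2, adjusted p = 9.26e-06). At PND12 and PND14 replicate 1 was at 70.8 and 70.5 CPM and replicate 2 at 28.8 and 29.2 CPM, the reverse of *Spo11*, for which replicate 2 was the higher on both days. At PND30 to adult 5 of 6 pools lay between 0.836 and 3.17 CPM and replicate 1 of the adult at 46.2 CPM. The change was -2.82 ± 0.55 (adjusted p = 6.10e-05) with that pool and -4.20 ± 0.53 (adjusted p = 9.14e-08) without it.

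*Hormad1*, on the plus strand at chr3:95559677-95587671, encodes an axis protein needed for pairing and for normal numbers of breaks. It was never low: the lowest of the 46 pools had 92.8 CPM. The 6 pools of E11.5 to E13.5 ran from 92.8 to 166 CPM (median 125.6 CPM), and those of E14.5 to E16.5 from 186 to 299 CPM (median 228 CPM), with no overlap. At E17.5 to PND2 the range was 195 to 330 CPM (median 252 CPM), highest in replicate 1 of E17.5, and at PND3 to PND8 it was 102.4 to 205 CPM (median 130.3 CPM). The level rose again to 157 to 548 CPM at PND10 to PND14 (median 283 CPM), with 286 and 548 CPM at PND14. The pools of PND30 to adult overlapped these, from 120.9 to 496 CPM (median 229 CPM). The log2 fold changes were 0.54 ± 0.17 (adjusted p = 0.0119), -0.21 ± 0.15 (adjusted p = 0.306), -0.51 ± 0.13 (adjusted p = 0.00127), 1.12 ± 0.14 (adjusted p = 2.27e-06) and 0.08 ± 0.17 (adjusted p = 0.750). The first was lost when any of 3 pools was left out, replicate 1 of E11.5 (adjusted p = 0.0588), replicate 2 of E12.5 (adjusted p = 0.0537) or replicate 2 of E16.5 (adjusted p = 0.0504). The last was 0.54 with an adjusted p of 0.00462 by DESeq2, and 0.40 with an adjusted p of 0.0337 without replicate 2 of PND14.

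*Hormad2* encodes the related axis protein and lies on the minus strand at chr11:4345814-4441105. Its course was unlike that of *Hormad1* before birth. It ran from 26.6 to 43.7 CPM in the pools of E11.5 to E13.5 (median 37.8 CPM), from 11.6 to 51.97 CPM at E14.5 to E16.5 (median 28.9 CPM) and from 5.72 to 30.1 CPM at E17.5 to PND2 (median 14.47 CPM). The fall began after E14.5, where both pools were still at 51.97 and 46.95 CPM, and reached 9.23 and 5.72 CPM at E18.5, when *Hormad1* stood at 301 and 280 CPM. The 12 pools of PND3 to PND8 lay close together, from 23.2 to 33.8 CPM (median 29.5 CPM), and all 6 of PND10 to PND14 lay above them, from 39.9 to 144.3 CPM (median 71.5 CPM). At PND30 to adult the range was 15.8 to 146.8 CPM (median 32.8 CPM), the highest again being replicate 1 of the adult. The log2 fold changes were -0.80 ± 0.24 (adjusted p = 0.00896), -1.26 ± 0.21 (adjusted p = 4.25e-05), 1.44 ± 0.19 (adjusted p = 2.54e-07), 1.39 ± 0.20 (adjusted p = 1.14e-05) and -0.51 ± 0.24 (adjusted p = 0.0624). The last was -0.86 ± 0.21 (adjusted p = 0.000927) without replicate 1 of the adult and past the threshold then, while DESeq2 gave -0.07 (adjusted p = 0.813) with all pools.

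*Trip13* encodes the ATPase that removes HORMAD proteins from paired axes and that also serves the mitotic checkpoint. It lies on the minus strand at chr13:73911347-73937784. It was high in the pools of E11.5 to E13.5, from 118.1 to 135.5 CPM (median 125.7 CPM), and lower in all of E14.5 to E16.5, from 41.8 to 112.8 CPM (median 67.4 CPM). It fell on to 39.7 and 40.3 CPM at E18.5 and was back at 91.9 and 123.4 CPM at PND2, so the 10 pools of E17.5 to PND2 spanned 35.7 to 123.4 CPM (median 48.8 CPM). At PND3 to PND8 all 12 pools lay between 122.1 and 167 CPM (median 145.2 CPM), and at PND10 to PND14 between 92.7 and 156 CPM (median 125.2 CPM). After PND14, 5 of 6 pools were at 10.2 to 18.8 CPM and replicate 1 of the adult was at 87.4 CPM, still below every pool of the window before. The log2 fold changes were -1.13 ± 0.22 (adjusted p = 0.000143), -0.61 ± 0.19 (adjusted p = 0.0159), 1.69 ± 0.17 (adjusted p = 3.76e-09), -0.26 ± 0.19 (adjusted p = 0.384) and -2.12 ± 0.23 (adjusted p = 1.07e-08). The second was lost without replicate 2 of E15.5 (adjusted p = 0.0898) or of E16.5 (adjusted p = 0.051).

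Most neighbours in the order of a gene's levels could not be told apart. When the 23 time-points of a gene were ordered by the mean of both pools, the pools of neighbouring time-points overlapped in 22 of 22 pairs for *Hormad1*, in 21 for *Prdm9*, in 20 for *Spo11*, in 19 for *Mei4*, *Hormad2* and *Trip13* and in 17 for *Mei1*. Some steps had no overlap. Here, as between windows, the share of all genes without overlap was not counted. *Spo11* stepped from 69.5 CPM (mean at PND14) to 128.6 CPM at PND30, *Mei4* from 16.52 CPM at PND6 to 25.4 CPM at PND8 and from 0.239 CPM at PND35 to 2.89 CPM at E17.5, and *Trip13* from 17.3 CPM at PND35 to 40.01 CPM at E18.5.

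The promoters of *Hormad1* and *Prdm9* are shown because both genes rose in the fetal and in the postnatal window and both hold letters that were searched for. The fetal rise of *Hormad1* was near the median change of all genes. Promoters of 6 of the 7 genes were found in the RefSeq table (GRCm38.p6, 250 bases before to 50 bases after each start), and none for *Spo11*. The 4 motifs searched on both strands were CACGTG (an E-box), CNCCTCAG (the motif of STRA8, the factor that starts meiosis), GGCGGGAA (E2F) and TGACGTCA (CRE). Capitals mark the matches, and positions are counted from the start site, negative before it.
*Hormad1*, chr3:95559427-95559726, plus strand: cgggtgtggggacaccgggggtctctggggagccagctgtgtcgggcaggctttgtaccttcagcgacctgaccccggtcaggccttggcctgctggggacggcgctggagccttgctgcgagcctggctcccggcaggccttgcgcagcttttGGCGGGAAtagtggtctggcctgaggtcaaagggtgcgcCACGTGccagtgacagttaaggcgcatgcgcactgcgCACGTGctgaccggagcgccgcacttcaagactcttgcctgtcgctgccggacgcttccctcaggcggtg
*Prdm9*, chr17:15564305-15564604, minus strand: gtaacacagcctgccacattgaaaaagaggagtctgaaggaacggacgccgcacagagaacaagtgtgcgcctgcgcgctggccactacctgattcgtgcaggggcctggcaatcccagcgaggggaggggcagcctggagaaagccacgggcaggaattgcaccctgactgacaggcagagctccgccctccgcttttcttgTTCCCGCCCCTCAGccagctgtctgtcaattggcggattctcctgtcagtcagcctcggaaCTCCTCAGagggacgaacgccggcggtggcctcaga

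The *Hormad1* promoter holds CACGTG at -57 and -20 and GGCGGGAA at -96. The *Prdm9* promoter holds CNCCTCAG at -41 and 15 and, sharing bases with the first of these on the other strand, GGCGGGAA at -47. The *Hormad2* promoter holds CNCCTCAG at -109, and those of *Mei1*, *Mei4* and *Trip13* and the other listed start of *Prdm9* hold none of the 4. The *Mei1* window, chr15:82082226-82082525, lies inside the gene as annotated (start 82069996), so its annotated 5′ end was not searched. Of 32851 promoters of the same length, 7.15% hold CACGTG, 7.94% CNCCTCAG, 2.19% GGCGGGAA and 1.79% TGACGTCA. A match here describes the letters of the window and no binding was measured. CG dinucleotides numbered 24 in the *Hormad1* window and 18 in the *Prdm9* window, and the median of all promoters was 7.

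The genes that work with these 7 were read from a list of 38 by role, of which 37 were tested. At E14.5 to E16.5, 23 of them rose and 4 fell, where 24.2% of all genes tested were higher and 16.2% lower. Of the 4 break formation partners 3 rose, *Ankrd31* (3.76 ± 0.30), *Iho1* (named *Ccdc36* in the files, 1.40 ± 0.22) and *Top6bl* (named *Gm960*, 1.13 ± 0.31), the last of which encodes the partner of SPO11 in the cutting complex. Of 6 axis genes 5 rose, among them the cohesin gene *Rad21l* (8.19 ± 1.29) and the axis genes *Sycp2* (2.89 ± 0.19) and *Sycp3* (2.04 ± 0.26). Both genes of meiotic entry rose, *Stra8* by 6.35 ± 0.88 and *Meiosin* (named *Gm4969*) by 2.97 ± 0.68. In replicate 1 of E15.5, *Stra8* was at 31.5 CPM with the 3 cells without reporter and at 16.1 CPM in the 93 reporter-positive cells. The fold changes of the list are given with these 3 cells included. At E17.5 to PND2 the list went the other way, with 3 higher and 14 lower (all genes, 20.5% and 16%). *Iho1* rose again (1.25 ± 0.20), like *Mei1*, and 4 of 6 axis genes fell by 0.44 to 0.70. Both partners of TRIP13 fell with *Trip13*, *Mad2l1* by 1.36 and *Mad2l1bp* by 0.66.

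At PND3 to PND8, 20 of the 37 rose and 3 fell, against 22.9% and 31.2% of all genes. All 4 break formation partners were among those that rose, by 0.70 to 1.16. *Stra8* rose by 3.45 ± 0.43 and *Mad2l1* by 1.20 ± 0.15. At PND10 to PND14, 17 rose and 20 were not past the threshold, where 14.1% of all genes were higher. Of the 15 genes of break repair 8 rose, led by *Meiob* (2.31 ± 0.31), *Msh4* (2.14 ± 0.29), *Mcmdc2* (2.06 ± 0.35) and *Hfm1* (1.83 ± 0.20), and 3 of 6 axis genes rose with *Hormad1* and *Hormad2*, led by *Sycp3* (2.08 ± 0.21). The 3 tested genes that the list groups with *Prdm9* (*Zcwpw1*, *Cxxc1* and *Hells*) did not pass the threshold there. Their median was -0.07, while *Prdm9* rose by 3.01. At PND30 to adult, 7 rose and 18 fell, and of all genes 36.8% were higher and 30.1% lower, so that the share called on the list is near the 66.9% of all genes. The 3 genes grouped with *Prdm9* fell, *Zcwpw1* by 2.88 and *Hells* by 2.79, while *Prdm9* fell by 2.82. *Rec114*, which encodes a direct partner of MEI4, fell by 3.99 next to *Mei4*. The medians of the list, 0.73, -0.38, 0.52, 0.55 and -0.42, compare with those of all genes given above. *Zcwpw2* is not analysed here.

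Germ cells were compared with somatic cells of the same 16 fetal pools, E11.5 to E18.5. The somatic cells give the background of the genes of meiosis, but not of *Trip13*, which dividing cells also use. *Hormad1*, *Spo11*, *Mei4*, *Hormad2* and *Mei1* were higher in germ cells and *Prdm9* and *Trip13* were not past the threshold, 5 of 7, in a comparison with the pool as a block that called 59.1% of 23162 genes (39% higher, 20.1% lower). DESeq2 called 57.2% there (34.5% higher, 22.6% lower). *Hormad1* ran from 92.8 to 331 CPM in germ cells (median 199 CPM) and from 1.71 to 17.3 CPM in somatic cells (median 4.29 CPM), a log2 difference of 4.997 ± 0.26 (adjusted p = 1e-11). Its groups did not overlap over all pools, and the share of all genes without overlap was not counted. *Spo11* was at 2.63 to 70.8 CPM (median 29.7 CPM) against 0 to 5.11 CPM (median 0.705 CPM) and higher in germ cells in 16 of 16 pools (4.94 ± 0.47, adjusted p = 2.21e-08). *Hormad2* was also higher in 16 of 16 pools, with medians of 26.9 and 1.24 CPM (4.25 ± 0.52, adjusted p = 7.62e-07). *Mei4* was higher in 14 of 16 pools, with medians of 10.1 and 0.318 CPM (4.73 ± 0.77, adjusted p = 2.65e-05), and *Mei1* in 13 of 16, with medians of 0.963 and 0.176 CPM (3.13 ± 0.66, adjusted p = 0.000596).

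For *Prdm9* and *Trip13* the ranges of germ and somatic cells overlapped widely. *Prdm9* had a median of 5.79 CPM in germ cells and 2.76 CPM in somatic cells, was higher in germ cells in 11 of 16 pools and reached 23.6 CPM in the somatic cells of replicate 2 of E17.5. Its log2 difference of 1.06 ± 0.57 missed the threshold (adjusted p = 0.111) and passed it by DESeq2 (1.20, adjusted p = 0.0180). *Trip13* ran from 39.7 to 135.5 CPM in germ cells and from 20.8 to 108.2 CPM in somatic cells, with a difference of 0.14 ± 0.22 (adjusted p = 0.606). The median log2 difference of all genes was 0.70 by edgeR and 0.21 by DESeq2. Of the list by role, 31 of 37 were higher in germ cells and 1 was lower, *Mad2l1bp* (-1.08 ± 0.24), a partner of TRIP13, where 39% and 20.1% of all genes were.

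**Figure D3:**
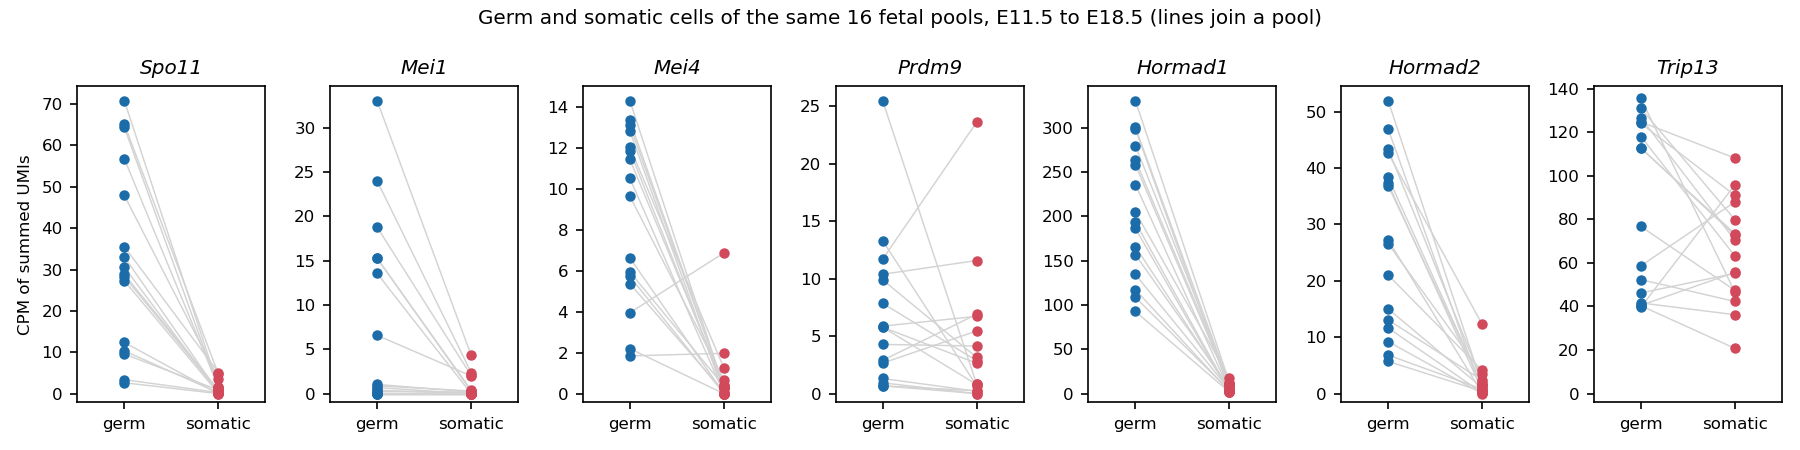
CPM of each gene in germ cells (reporter-positive, blue) and somatic cells (reporter-negative, red) of 16 fetal pools, with a grey line for each pool and 1 linear axis per panel. All lines of *Spo11*, *Hormad1* and *Hormad2* go down from germ to somatic cells, whereas those of *Prdm9* and *Trip13* cross.

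Shares of cells with at least 1 UMI were compared after each cell was thinned to 50000 UMIs, at which 20.7% of 502 somatic cells of the fetal gonads had a UMI of *Hormad1*, 58.2% of *Trip13*, 8.57% of *Prdm9*, 7.77% of *Hormad2*, 5.58% of *Spo11*, 2.39% of *Mei1* and 1.59% of *Mei4*. The median depth before thinning was 160046 UMIs in the somatic cells, of which 59 of 561 were too shallow, and 220051 to 434364 UMIs in the germ cell pools, of which at most 28 cells a pool were too shallow. At E11.5, 12.1% and 10.3% of germ cells had a UMI of *Spo11*, and at E18.5 85.7% and 65.2% had one (without thinning 22.2%, 24.1%, 94.4% and 92.6%, against 14.4% of somatic cells). For *Mei1* the shares were 1.01% and 0% at E11.5, 43.5% and 63.8% at E17.5 and 73.1% and 64.8% at PND10, where all cells unthinned gave 90.4% and 86.6%. At these later ages both shares were above those of the somatic cells. The share of *Prdm9* was at or below the somatic one before E14.5 and at 30% and 34.8% at E18.5. At PND12 and PND14 it was 46.2%, 27.6%, 46.8% and 36.2% in the 4 pools. *Hormad1* was found in 80.4% of cells or more in every pool. Among the adults, replicate 1 had a UMI of *Mei4* in 23.7% of cells and replicate 2 in 0.694%.

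Cells of PND10 to adult were clustered without the 7 genes and the list by role, and 17 clusters were obtained. Of these, 12 were named from stage markers by the rule given with the processing. What follows describes these clusters and tests nothing, since the classes come from the same cells. *Prdm9* and *Mei1* had their highest level in a cluster named early prophase-like (cluster 1), with cells of 11 pools. There, *Prdm9* was at 300.3 CPM, *Mei1* at 85.6 CPM, *Mei4* at 24.9 CPM, *Spo11* at 134.1 CPM and *Hormad1* at 625 CPM. In the pools that gave 10 or more cells to it, *Prdm9* was at 226 CPM (replicate 2 of PND12), 432 and 362 CPM (PND14), 116.96 CPM (replicate 2 of PND30) and 45.4 CPM (replicate 1 of PND35). *Mei4* was about as high, at 26.97 and 25.6 CPM, in the clusters of differentiating spermatogonia-like cells (0 and 3), where *Mei1* was at 44.8 and 39.1 CPM and *Prdm9* at 20.07 and 38.6 CPM. A second early prophase-like cluster of 262 cells (cluster 4) had far less of the 3, with 11.52, 4.95 and 1.13 CPM, and more *Hormad1* (767 CPM), while *Spo11* (158 CPM) and *Hormad2* (203 CPM) were near the values of the first (134.1 and 200 CPM). This held in replicates 1 and 2 of PND14, in which *Prdm9* was at 24.8 and 7.95 CPM in the second cluster.

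*Spo11* stayed high in later clusters in which *Prdm9*, *Mei1* and *Mei4* were low. In 3 pachytene-like clusters it was at 201, 195 and 183 CPM, with *Prdm9* at 3.05, 0.646 and 0.918 CPM and *Mei4* at 0.525 CPM or less. *Mei1* was at 2.85, 5.21 and 6.45 CPM there and at 5.86 and 6.86 CPM in the late prophase-like clusters, about as in cluster 4 (4.95 CPM). *Spo11* was still at 176 and 111.9 CPM in 2 late prophase-like clusters and at 87.6, 40.3 and 16.6 CPM in 3 round spermatid-like ones. A name is that of the stage with the highest mean log2 fold, and other stages can be near it. In the first late prophase-like cluster (10) it was 0.54, against 0.43 for pachytene markers. In the second (12) it was 1.04, against 0.83 for round spermatid markers. The 2 HORMAD genes were lower in these later clusters. *Hormad1* was at 535 CPM in 1 pachytene-like cluster and at 237 and 238 CPM in the other two, and *Hormad2* at 117.8, 21.5 and 25.2 CPM. *Trip13* was highest in 2 clusters of differentiating spermatogonia-like cells, at 153 and 160 CPM, in which *Spo11* was at 7.85 and 17.8 CPM. Of the 331 germ cells of replicate 1 of the adult, 45.02%, 39.6% and 12.99% lay in 3 unnamed clusters (14, 5 and 6) that held 90.97% to 100% cells of that pool, and the first 2 are led by *Lcn2*, *Ptgds* and *Cyp17a1*, the last a Leydig cell gene. In its cells *Prdm9* was at 97.9, 10.2 and 6.45 CPM in the 3, and *Mei4* at 23.5, 2.41 and 1.32 CPM. In the first of these *Mei1* was at 55.01 CPM, so all 3 genes were high in it too. Replicate 1 of PND12 had 97.3% of its cells in an unnamed cluster led by *Cst12*, *Cldn11* and *Wfdc10*, in which its *Prdm9* was at 68.9 CPM.

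**Figure D4:**
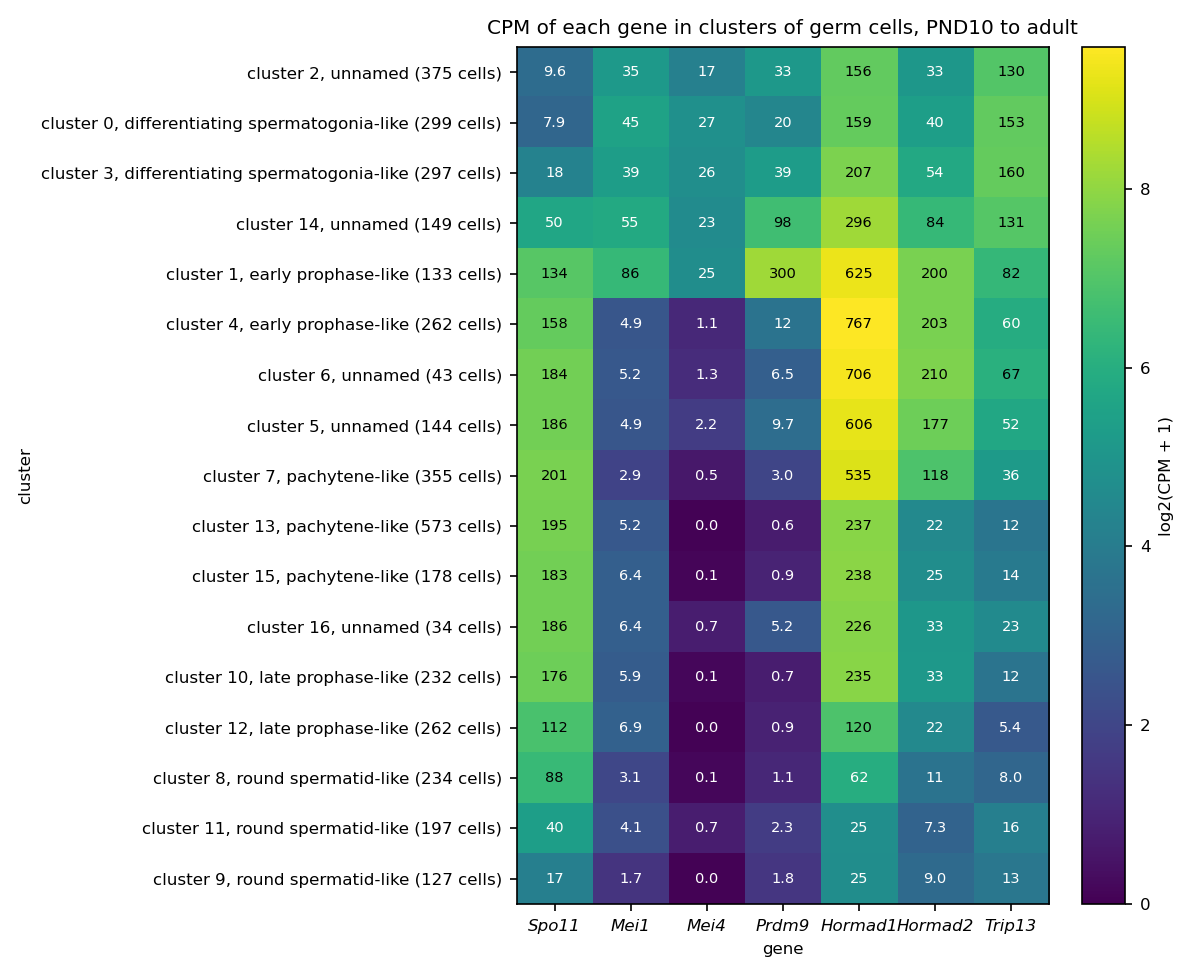
CPM of the 7 genes in 17 clusters of germ cells of PND10 to adult, as numbers in a heat map coloured by log2(CPM + 1), with the number of cells of each cluster. *Prdm9* has its highest value in cluster 1 (300.3 CPM), *Trip13* is high in the spermatogonia-like clusters, and *Spo11* stays above 100 CPM down to the late prophase-like clusters.

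At PND30, cells with a 4N DNA content, which include spermatocytes, were compared with 1N cells, which are spermatids. *Spo11* and *Hormad1* were higher in 4N cells, 2 of the 6 genes tested, where 29% of 20269 genes were called (12.2% higher, 16.8% lower; 41.6% by DESeq2, with 19.5% higher and 22.1% lower). *Spo11* was at 67.7 and 49.9 CPM in 1N, 90.8 and 114.2 CPM in 2N and 180 and 172 CPM in 4N cells, and the 3 sorts did not overlap (4N against 1N, 1.40 ± 0.29, adjusted p = 0.00706). *Hormad1* was at 60.9 and 50.1 CPM in 1N, 77.5 and 188 CPM in 2N and 199 and 212 CPM in 4N cells (1.70 ± 0.38, adjusted p = 0.00923), also without overlap between 1N and 4N. For *Hormad2* the values were 12.9 and 10.4 CPM in 1N and 20.4 and 23.8 CPM in 4N cells (0.74 ± 0.43, adjusted p = 0.200), apart as well, but not past the threshold. With 2 pools a sort, a lack of overlap says little, and the share of all genes without overlap was not counted. *Trip13* lay between 8.90 and 13.3 CPM, *Prdm9* between 0.783 and 3.52 CPM and *Mei1* between 2.67 and 6.45 CPM in all 6 (edgeR adjusted p = 0.683, 0.624 and 0.912). *Mei4*, with 0 to 28 UMIs a sort, was removed by the filter on low counts.

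**Figure D5:**
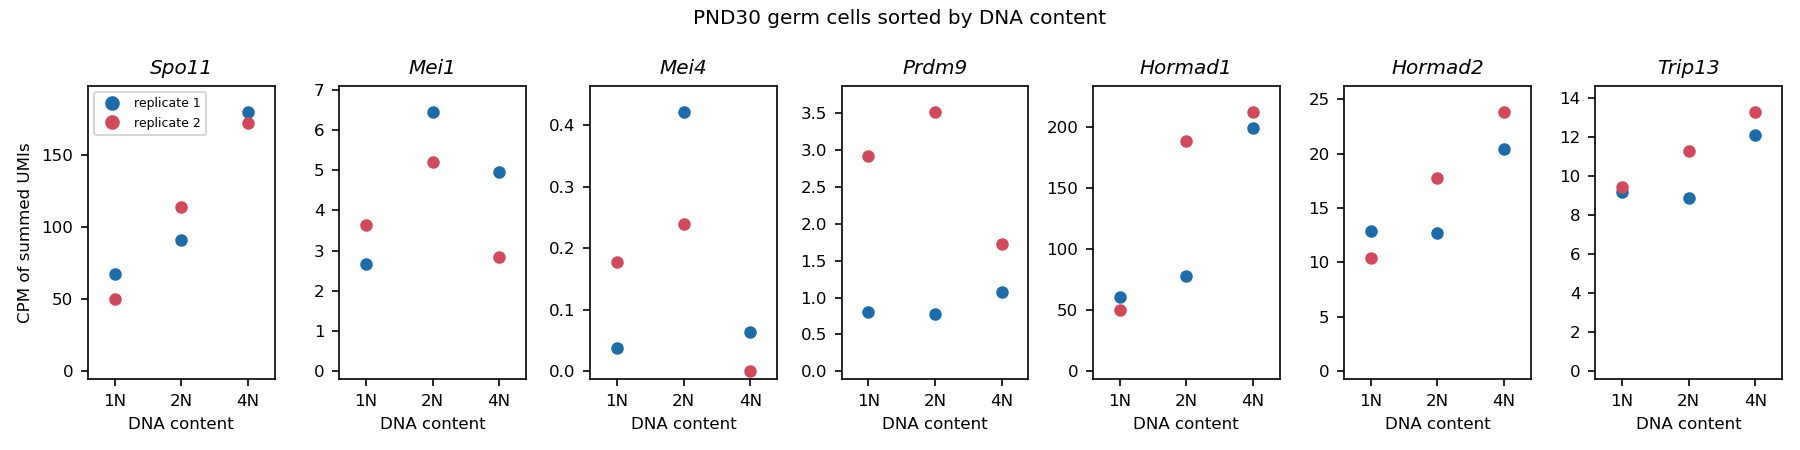
CPM of each gene in 1N, 2N and 4N germ cells of PND30, with 1 point per replicate and linear axes from 0. *Spo11* climbs from 49.9 and 67.7 CPM in 1N to 172 and 180 CPM in 4N cells, and *Mei4* is at 0.422 CPM or less in all sorts.

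For PND14, sorts by DNA content existed with both 2N and 4N cells in replicate 1 only, so they are given without a test. In that replicate the 4N cells had more *Prdm9* than the 2N cells (114.4 against 27.8 CPM), more *Spo11* (64.1 against 5.96 CPM), more *Hormad1* (456 against 121.2 CPM) and more *Hormad2* (141.9 against 23.98 CPM). *Mei1* (52.1 and 36.4 CPM), *Mei4* (20.8 and 17.1 CPM) and *Trip13* (146.1 and 135.1 CPM) were closer together. The 2N cells of replicate 2 were not like those of replicate 1, with *Spo11* at 105.4 CPM and *Hormad1* at 602 CPM, higher than in the 4N cells of replicate 1.

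Over the 23 time-points, the correlation of the mean log2(CPM + 1) was used to name the genes whose course was most like each of the 7, among 13614 genes. The time-points share libraries between genes, and the values are a description. *Mei4* and *Trip13* were the most alike among the 7 (r = 0.94), *Spo11* and *Hormad1* followed (r = 0.80), and *Spo11* and *Trip13* ran opposite (r = -0.85). The genes nearest to *Trip13* were *Hmgn2*, *Mrpl49* and *Melk* (r = 0.99, 0.99 and 0.99), and those nearest to *Mei4* were *Atm*, *Nars2* and *Lrrc40* (0.97, 0.97 and 0.97). For *Prdm9* they were *Six5*, *Rbbp8* and *Cyld* (0.94, 0.94 and 0.91), and for *Hormad1* *Hfm1*, *Rad51ap2* and *Trpc1* (0.88, 0.88 and 0.85). *Mei1* was nearest to *H2-Q7* (0.96), *Hormad2* to *Rars2* (0.92) and *Spo11* to *3830406C13Rik* (0.955).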

How the data were processed

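The authors used UMI-tools for barcodes and for UMIs, seqtk for trimming, STAR for alignment (build mm10) and Subread's featureCounts to assign reads to genes. The deposited values are UMI counts per gene and cell, without normalization. The deposited table of cells gave time-point, replicate and gate. Cells with more than 2000 genes and 10000 to 1000000 UMIs were kept (9287 of 9528), and those with log2 of germline and spermatid over somatic marker CPM (each + 10) above -1 were called germ cells (275 cells lay within 1 unit of this limit). Of these 275, 52 and 36 were cells of replicates 1 and 2 of E11.5, where *Rhox5* made up most of the somatic marker sum. No doublet caller was run, since cells were picked singly.

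Counts were summed per pool, or per sort or gate, over at least 10 cells. They were tested with edgeR 4.0.16 (limma 3.58.1, R 4.3.3; TMM, filterByExpr, quasi-likelihood test), with each time-point as a group and a window as the mean of its time-points. P-values measure the spread between the pools of a time-point, and not that between the time-points of a window. The pools were biological replicates of 1 animal each after birth and of several embryos before. DESeq2 1.42.0 was an alternative. The fits were also run on simulated counts, with an outcome that is not given here. The simulated counts held no change between the time-points of a window, so they do not test the spread between time-points. Same-numbered PND30 sorts share an animal, and their deviations correlated at 0.137 to 0.407 in 3 pairs of sorts. Clusters (scanpy 1.11.5) used 2000 genes, 30 components and a resolution of 0.6. A cluster took a name from 3 or more of a stage's markers with a mean log2 fold over 0.5. No name was given where a somatic marker was among its 10 top genes or nearly all of its cells came from 1 pool. Clusters 2, 5, 6 and 14 met the marker condition and went unnamed for these reasons. The stage markers include *Dmc1*, *Meiob*, *Syce3*, *Hells* and *Stra8* of the list by role.

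All 7 genes are named. Of each role on the list at most 4 genes with the largest change past the threshold are named, and of the genes most like each of the 7 at most 3. The 7 genes, lists and windows were chosen with earlier results of these data known. Single-cell depth limits a level only by counting error. E6.5 to E10.5 cells and *Helq*-null cells are not analysed here.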

Additional observations from a re-analysis of the deposited data

Results flagged for a closer look

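Within each window of 4 to 10 pools, Dixon's test for an outlier was run at the 95% level, in 35 groups. It set the highest and lowest pool of each of the 7 genes against the others. A group mixes pools of different time-points, and the genes share pools, so the number of flags to expect by chance is not known. The test flagged 8 pools. Of these, 5 are the same pool, replicate 1 of the adult, which stood far above the other 5 pools of PND30 to adult for *Mei1* (25.4 CPM, next highest 5.54 CPM), *Mei4* (10.9 CPM, next 0.366 CPM), *Prdm9* (46.2 CPM, next 3.17 CPM), *Hormad2* (146.8 CPM, next 43.8 CPM) and *Trip13* (87.4 CPM, next 18.8 CPM). That pool had 509 CPM of somatic markers, where replicate 2 of the adult had 43.1 CPM, and the part of these in the levels was not tested.

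*Prdm9* was flagged at 26.1 CPM in replicate 1 of E15.5 (next 9.91 CPM), a value that was 10.4 CPM without the 3 reporter-negative cells, and at 25.5 CPM in replicate 2 of E18.5 (next 13.3 CPM), where Leydig cell markers summed to 437 CPM, the highest of all pools. *Spo11* was flagged at 29.3 CPM in replicate 1 of E13.5 (next 12.4 CPM). The group of PND3 to PND8, with 12 pools, was not tested.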

How the results depend on the processing

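The alternatives were DESeq2, no filter on low counts, the replicate number as a block, the window as the group, a stricter and a looser germ cell rule, the sorting gate alone, no filter on cells, at least 30 cells per sum, no PND30 cells, all cells of a sort and leaving out pools or replicates. The leave-out of each pool was added after the data were seen and used the spread of the whole fit. Of the counts, levels and shares, 301 values stayed and 13 did not, and of the single genes' changes 1030 stayed and 46 did not. With the window as the group, 1 gene fell in the first comparison (*Hormad2*, -0.49, adjusted p = 0.311, was lost), and none rose and 1 fell in the second, where *Mei1* (1.46, adjusted p = 0.0589) and *Trip13* (-0.62, adjusted p = 0.115) were lost. With DESeq2, 2 genes rose in the last comparison, *Hormad1* joining *Spo11*, and *Prdm9* fell in the third (-0.83, adjusted p = 0.0417).

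Left out 1 at a time, pools gave 3 to 4 higher and 2 to 3 lower genes in the first comparison, 1 higher and 1 to 2 lower in the second, 3 and 2 in the third, 4 and 0 in the fourth, and 1 to 2 and 4 to 5 in the last. In the first, *Hormad1* was lost without replicate 1 of E11.5 or replicate 2 of E12.5 or E16.5, and *Mei4* was gained without the last of these. In the second, *Trip13* was lost without replicate 2 of E15.5 or E16.5. In the last, *Hormad1* was gained without replicate 2 of PND14, and *Hormad2* without replicate 1 of PND14 or of the adult.

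Changes that were not past the threshold turned sign 9 times. In the second comparison these were *Spo11* (0.13 with DESeq2, 0.028 with the window as the group, 0.05 without replicate 1 of E16.5), *Prdm9* (0.020 with the gate alone, 0.10 without replicate 1 of E15.5) and *Mei4* (0.077 without replicate 2 of E16.5). The others were *Mei1* in the third (-0.049 with DESeq2), *Mei4* in the fourth (-0.05 without replicate 1 of PND12) and *Hormad1* in the last (-0.01 without replicate 1 of PND14). The cause was not tested. *Hormad2* in the last was also past the threshold without replicate 1 of PND14 (-0.59, adjusted p = 0.043).

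Shares of cells with a UMI were higher without thinning, at 99.7% for *Spo11* at PND35, 88.5% for *Mei1* and 75.4% for *Mei4* at PND10, 66.2% for *Prdm9* at PND14 and 99.4% for *Trip13* at PND8. *Mei4* at PND10 was at 23.4 CPM as a mean over cells. With the replicate number as a block the genes called were the same in number, 4 higher and 2 lower, 1 and 2, 3 and 2, 4 and 0, and 1 and 4, and no call changed. Same-numbered pools of different time-points did not deviate together at the median (correlation 0.003 over 253 pairs), while single pairs ran from -0.294 to 0.566. Whether same-numbered pools of some days share a batch was not tested. In the PND30 sorts the block left *Spo11* (1.40) and *Hormad1* (1.68) past the threshold. Without the block, 4 genes were higher in germ than in somatic cells, since the filter then removed *Mei1*. Leaving out a whole replicate left the window and sort fits without residual degrees of freedom, so these are values with no test. Over all leave-outs, changes whose sign was not steady ran from -0.27 to 0.13 for *Spo11*, -0.48 to 0.077 for *Mei4* and -0.76 to 0.29 for *Prdm9* in the second comparison, -0.12 to 0.25 for *Mei4* in the fourth, and -0.023 to 0.51 for *Hormad1* and -0.89 to 0.030 for *Hormad2* in the last. Levels under about 1 CPM can rest on few UMIs, depending on the size of the pool.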

Other observations

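The 3 germ cells of replicate 1 of E15.5 from the gate without reporter came from 1 library and had 291127 to 324665 UMIs each. Their summed UMIs held more of several meiotic genes than those of the reporter-positive cells of their pool: *Stra8* was at 551 against 16.1 CPM, *Dmc1* at 486 against 18.1 CPM, *Sycp3* at 258 against 30.8 CPM, *Spo11* at 297 against 35.5 CPM, *Mei1* at 163 against 6.58 CPM, *Hormad1* at 700.3 against 205 CPM and *Hormad2* at 350.2 against 21.03 CPM. *Mei4* was at 71.1 against 5.94 CPM, with no UMI in 1 of the 3 cells, and *Trip13* was at 33.4 against 58.7 CPM. *Ddx4* was at 453 and 470.3 CPM and *Nanos2*, a gene of the male fetal germ cell, had no UMI in the 3 cells and 38.8 CPM in the others. The 4 Y-linked genes summed had 3 UMIs in the 3 cells, 0 to 2 per cell, while each of the 93 reporter-positive cells had at least 3 and all together 269 CPM. Of the 44 somatic cells of the same gate, 3 had no Y-linked UMI and the median was 36.5. These cells were chosen after their values were seen, and the cause of their difference was not tested.

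In several pools a few cells held most of a low gene's UMIs. The 3 highest cells held 86.3% of the *Prdm9* UMIs in replicate 1 of E11.5, all 15 *Mei1* UMIs in replicate 2 of E13.5, 22 of 25 in replicate 2 of E15.5 and 30 of 35 *Mei4* UMIs in replicate 1 of PND30.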
